A study of Mus musculus with 6 samples.

Results

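Cells carrying histone H3.3 with methionine in place of lysine 27 (H3.3K27M) were compared with cells carrying wild-type H3.3 (H3.3WT). Every gene of the deposited expression table that holds both groups entered the comparison: 14318 of the 14667 genes found in at least 1 table of the series. Of these, 11623 averaged at least 1 FPKM (fragments per kilobase of transcript, scaled to the mapped fragments of the library) and were tested. The comparison used 4 of the 6 libraries of the series, 2 per group. All lines came from NE-4C, a mouse neural stem cell line labelled as brain tissue and as deficient in p53, in which H3f3a, 1 of the H3.3 genes, had been knocked out. Both groups lacked that gene and stably carried an HA-tagged copy of H3.3, wild type in H3.3WT cells and with the K27M change in H3.3K27M cells. The other group of the series, Cbfa2t2_KO, also carried the HA-tagged wild-type copy and is labelled as a knockout of Cbfa2t2 in addition to H3f3a. It served here only as a second reference. Whether a line was a single clone, which promoter drove the introduced histone and whether replicate libraries stem from different cultures is not stated in the labels. The p-values below therefore measure only the spread between these libraries, which may be technical.

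Lysine 27 of histone H3 is the residue that Polycomb repressive complex PRC2 methylates, through its catalytic subunits EZH1 and EZH2, to keep developmental genes silent. The K27M mutation acts dominantly on PRC2 and is known from diffuse midline gliomas of childhood, where most H3K27 trimethylation is lost. PRC1 complexes read the mark through their CBX subunits, and KDM6A and KDM6B remove it. The series asked how CBFA2T2, a corepressor of the ETO family, acts on this mark and on metabolic genes, so pathways of lipid, sugar and mitochondrial metabolism were followed beside the Polycomb genes.

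The residue that separates the groups is shown first in the coding sequence of the H3f3a gene, from GENCODE transcripts of build GRCm38 (chr1:180811822-180811866, minus strand, within a coding exon). Capitals mark the codon of lysine 27, counted without the start methionine. The sequence of the introduced HA-tagged copies was not used here.

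H3f3a: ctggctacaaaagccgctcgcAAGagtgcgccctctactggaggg

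Promoters of the genes on which the metabolic results turn are shown next, each as the 250 bases before the RefSeq start in build GRCm38.p6. Hmgcs1 and Mvd stand for the cholesterol pathway, most of whose genes were higher in H3.3K27M cells. Capitals mark CCAAT boxes (CCAAT, or ATTGG on the other strand) in both, and in Hmgcs1 also a sterol regulatory element (TCACNCCAC, or GTGGNGTGA on the other strand). Hmgcs1 lies at chr13:119690101-119690350 on the plus strand and held 3 CCAAT boxes and 1 sterol regulatory element. Mvd lies at chr8:122443423-122443672 on the minus strand and held 2 CCAAT boxes.

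Hmgcs1: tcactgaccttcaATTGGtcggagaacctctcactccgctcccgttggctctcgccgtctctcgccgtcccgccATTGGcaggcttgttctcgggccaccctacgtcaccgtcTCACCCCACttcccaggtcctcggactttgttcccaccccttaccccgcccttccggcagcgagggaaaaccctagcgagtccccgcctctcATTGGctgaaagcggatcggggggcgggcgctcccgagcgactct

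Mvd: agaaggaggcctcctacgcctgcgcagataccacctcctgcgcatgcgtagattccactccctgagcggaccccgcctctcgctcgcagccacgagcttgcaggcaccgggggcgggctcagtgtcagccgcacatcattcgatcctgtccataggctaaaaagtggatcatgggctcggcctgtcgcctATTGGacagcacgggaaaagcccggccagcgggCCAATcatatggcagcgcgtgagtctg

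Ldha and Pgk1 stand for the hypoxia targets, the other large group of rises. Capitals mark the core of the hypoxia response element (ACGTG, or CACGT on the other strand), and the palindrome CACGTG counts on both strands. Ldha lies at chr7:46845554-46845803 on the plus strand and held 5 matches at 3 places, 2 of them palindromes. Pgk1 lies at chrX:106186850-106187099 on the plus strand and held 2 matches.

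Ldha: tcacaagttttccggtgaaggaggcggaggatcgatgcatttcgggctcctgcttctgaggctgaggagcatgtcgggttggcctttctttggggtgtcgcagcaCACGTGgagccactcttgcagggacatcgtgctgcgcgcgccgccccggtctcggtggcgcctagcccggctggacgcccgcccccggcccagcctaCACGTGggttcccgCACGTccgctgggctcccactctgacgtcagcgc

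Pgk1: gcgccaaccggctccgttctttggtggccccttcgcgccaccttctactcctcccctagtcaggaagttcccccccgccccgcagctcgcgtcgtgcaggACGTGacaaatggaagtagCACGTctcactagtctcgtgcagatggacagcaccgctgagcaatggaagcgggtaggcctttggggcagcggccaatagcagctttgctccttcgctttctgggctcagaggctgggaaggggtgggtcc

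These letters were searched on both strands in all 32851 RefSeq promoters of the same length, and 8162 tested genes matched the promoter table by symbol. The sterol regulatory element stood in 1.05% of all promoters and in 1 of the 20 promoters of 17 tested cholesterol genes. CCAAT stood in 33.8% of all promoters, in 35.9% of those of tested genes and in 16 of the 20 cholesterol promoters. The hypoxia core stood in 16.6% of all promoters, in 22.4% of those of tested genes and in 20 of the 38 promoters of 26 tested hypoxia genes. A match describes the letters of the window and is not evidence of binding.

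Summed FPKM came to 363586 and 366831 in the H3.3WT libraries and to 371546 and 419389 in the H3.3K27M libraries. The files give no read counts, so the depth is unknown. Across genes, log2(FPKM + 1) correlated at r = 0.984 between the H3.3WT libraries, at 0.980 between the H3.3K27M libraries and at 0.937 to 0.944 between the groups. With the Cbfa2t2_KO libraries, the H3.3K27M libraries correlated at 0.959 to 0.973 and the H3.3WT libraries at 0.932 to 0.943. H3f3a itself stood at 131 and 181 FPKM in H3.3WT and at 77.3 and 66.8 in H3.3K27M. The table does not separate the deleted gene from the introduced copy, so these values check neither label. H3f3b, the other H3.3 gene, stood at 171 and 200 against 120 and 135 FPKM, and Cbfa2t2 was low throughout, at 1.38 and 1.35 against 2.02 and 0.855 FPKM. In the libraries labelled Cbfa2t2_KO it stood at 1.02 and 0.769 FPKM, below both H3.3WT libraries and on either side of the lower H3.3K27M library. Its transcript level therefore does not separate that group from H3.3K27M. All these values are low and the difference from H3.3WT was not tested, so they do not settle the label.

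Against the label of a neural stem cell, the listed markers were only partly present. Of 16 neural stem cell markers 11 averaged at least 1 FPKM and were tested, among them Nes and Sox3, with values given below. Sox2, a transcription factor of neural and pluripotent stem cells, stood at 30.9 and 34.4 FPKM in H3.3WT and at 28.1 and 32.2 in H3.3K27M. Pax6 stayed at or below 0.926 FPKM and Hes5 at or below 0.678 in these 4 libraries, and Fabp7 was not in the table. Pou5f1, which encodes the pluripotency factor OCT4, was instead among the abundant transcripts, at 1069 and 919 FPKM in H3.3WT and at 1139 and 1351 in H3.3K27M. Utf1 (449 and 377 against 288 and 285 FPKM) and Lin28a (173 and 166 against 234 and 234 FPKM), genes of pluripotent and early embryonic cells, were high in both groups too. None of Pou5f1, Utf1 and Lin28a passed the test between the groups. The pluripotency genes were only partly present too: 13 of 17 listed genes were tested. Zfp42 and Tfcp2l1 were not in the table, and Dppa2 and Dppa5a averaged less than 1 FPKM. Markers of endothelial cells summed to 0.476 to 1.06 FPKM per library, and those of the oligodendrocyte lineage to 1.60 to 2.47.

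Transcript levels differed widely between H3.3K27M and H3.3WT cells, with more genes lower than higher. The test was limma on log2(FPKM + 1) with Benjamini-Hochberg adjustment at 0.05, and every log2 change below is H3.3K27M minus H3.3WT on that scale, which understates the change of low genes. It called 3049 of 11623 genes, 26.2%: 979 higher (8.42%) and 2070 lower (17.8%). A change of at least 1 on the log2 scale was reached by 275 of the higher (2.37% of tested genes) and 712 of the lower genes (6.13%). The groups did not overlap in 66.3% of tested genes, 7710 in all. The median change over all tested genes was -0.12. These shares are the background against which each gene group is read.

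**Figure D1:**
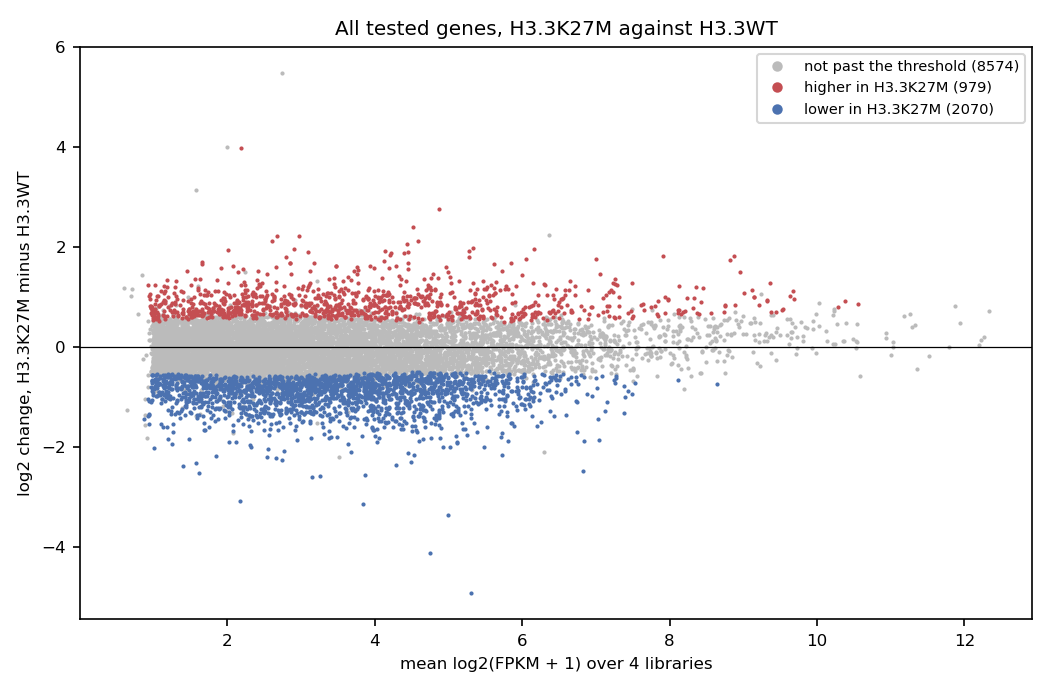
Log2 change (H3.3K27M minus H3.3WT, vertical axis) of each of the 11623 tested genes against its mean log2(FPKM + 1) over the 4 libraries (horizontal axis), with the 979 genes called higher and the 2070 called lower in colour. Called genes occur over the whole range of levels, and the lower calls outnumber the higher.

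The excess of lower calls went with base composition and transcript structure. From the lowest to the highest of 5 equal bins of GC content, the median change ran 0.07, -0.02, -0.15, -0.22 and -0.36, and the calls went from 295 higher and 145 lower to 89 higher and 735 lower. Protein-coding genes with up to 3 exons had a median of -0.44 (64 higher and 457 lower of 1209), and those with 6 or more exons -0.10 (637 higher and 1094 lower of 7530). Libraries of the same group differed along the same properties. The second H3.3WT library exceeded the first by 0.18 in the lowest GC bin and by -0.07 in the highest, and the second H3.3K27M library exceeded the first by 0.23 for the shortest transcripts and by -0.36 for the longest. With median-of-ratios scaling, which moved the overall median from -0.12 to 0.00, the calls were 1368 higher and 1424 lower (49.0% higher against 32.1%), and with trends in GC and length removed they were 1847 higher and 1777 lower (51.0% higher). The part of these properties in single results was not tested. Leaving out 1 library lowered the calls to as few as 295 higher and 712 lower, without H3.3WT replicate 2, against 811 and 1979 without H3.3K27M replicate 1.

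**Figure D2:**
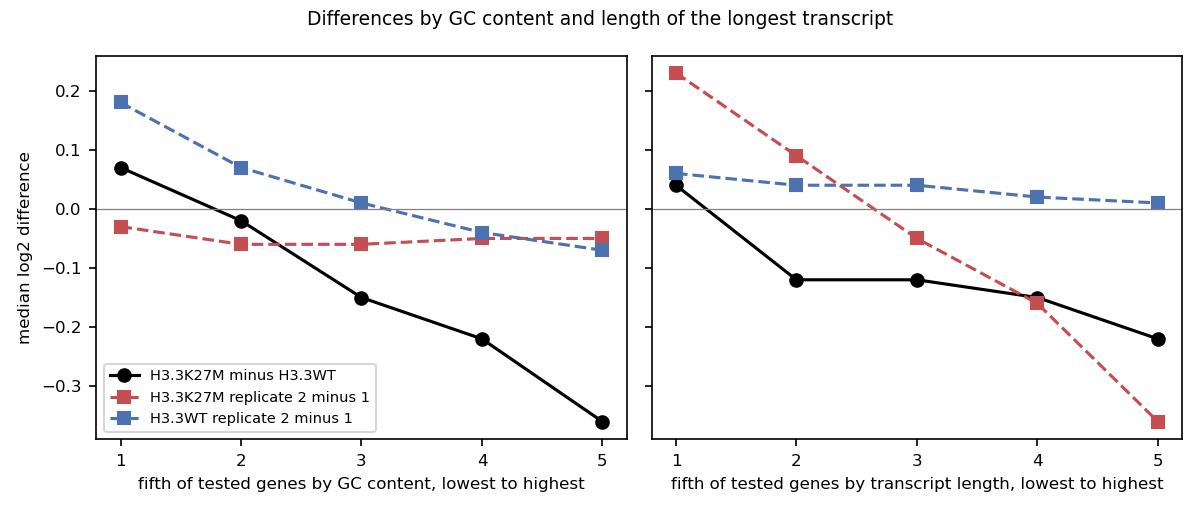
Median log2 difference of tested genes (vertical axis) in 5 equal bins of GC content (left) and of transcript length (right), for H3.3K27M minus H3.3WT (black) and for replicate 2 minus replicate 1 within each group (dashed). The group difference falls from 0.07 to -0.36 with GC content, and the H3.3K27M libraries differ from each other most with length, from 0.23 to -0.36.

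Among called genes with separate groups whose higher group reached 2 FPKM, leaving out unnamed gene models, pseudogenes and mitochondrial tRNAs, the largest rise in H3.3K27M cells was that of Npy, which encodes neuropeptide Y, a peptide transmitter of the nervous system. Npy (chr6:49822710-49829507) stood at 11.9 and 8.82 FPKM in H3.3WT and at 67.0 and 83.4 in H3.3K27M, a log2 change of 2.75 ± 0.20 (SE, adjusted p = 7.8e-04). Ier3, a stress- and growth-factor-induced survival gene, stood at 10.0 and 7.99 against 47.9 and 55.1 FPKM (2.40 ± 0.18). Spp1, which encodes the secreted phosphoprotein osteopontin, stood at 1.3 and 2.81 against 11.2 and 14.3 FPKM (2.21 ± 0.27). In all 3 genes both H3.3K27M libraries lay far above both H3.3WT libraries. Hmgcs1, the cytosolic HMG-CoA synthase at the entry of the cholesterol pathway, stood at 9.95 and 11.3 against 47.9 and 50.3 FPKM (2.11 ± 0.17). Tdgf1, the NODAL co-receptor Cripto, stood at 21 and 17.6 against 78.7 and 78.4 FPKM (1.97 ± 0.17). Ifitm1, an interferon-induced transmembrane protein that is also expressed in embryonic cells, stood at 10.6 and 8.72 against 39.1 and 46.9 FPKM (2.05 ± 0.18). The replicates of these genes agreed closely beside the distance between the groups. The endoplasmic reticulum chaperone gene Hsp90b1 (1.95), the O-GlcNAc transferase gene Ogt (1.95), the sarcosine oxidase gene Pipox (1.93), the mitochondrial import gene Tomm5 (1.91), the transcription factor gene Klf2 (1.90), the threonine dehydrogenase gene Tdh (1.88) and the hypoxia-induced gene Ndrg1 (1.87) followed, with the long noncoding Snhg5 (2.21) ahead of them. Tdh is known for feeding one-carbon metabolism in mouse embryonic stem cells. Several of these genes were also high in Cbfa2t2_KO, which carried wild-type H3.3. Ier3 stood there at 46.4 and 63.1 FPKM, Spp1 at 11.7 and 9.70 and Hsp90b1 at 159 and 99.9. Ogt stood there at 14.4 and 9.14 FPKM and Tomm5 at 56.0 and 67.7. In the direct comparison below, Npy, Snhg5, Hmgcs1, Tdgf1 and Ifitm1 were called higher in H3.3K27M, and the others of the 15 largest rises were not called. The small nucleolar RNA Snord12 stood at 0.437 and 4.90 against 11.4 and 11.8 FPKM (2.11 ± 0.53), and its call was lost without either H3.3K27M library (adjusted p = 0.075 to 0.11).

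The largest fall was that of Egr1, a zinc-finger transcription factor induced within minutes of growth-factor signalling. Egr1 stood at 173 and 273 FPKM in H3.3WT and at 5.97 and 6.43 in H3.3K27M, a log2 change of -4.93 ± 0.22 (adjusted p = 9.6e-05). Gadd45g, a stress-induced growth-arrest gene, stood at 38.6 and 44.2 against 2.89 and 4.92 FPKM (-3.14 ± 0.23). Ier2, an immediate early gene, stood at 234 and 304 against 42.2 and 51.7 FPKM (-2.49 ± 0.20). No H3.3K27M library came near an H3.3WT library in these genes. Lck, a SRC-family tyrosine kinase best known from T cells, stood at 49.4 and 48.6 against 8.94 and 9.30 FPKM (-2.31 ± 0.16). Spsb2, which encodes a substrate adaptor of ubiquitin ligases, stood at 17.8 and 24.4 against 3.78 and 1.67 FPKM (-2.61 ± 0.29). Fignl1, whose protein takes part in homologous recombination, stood at 11.6 and 13.8 against 2.0 and 1.85 FPKM (-2.22 ± 0.19). These genes too were well separated between the groups. Tssc4 (-2.36), Rpp25l (-2.16), Zscan25 (-2.12), the nucleolar gene Surf6 (-2.10) and Fam46b (-2.08) were also among the 15 largest falls, with the histone genes Hist1h1c, Hist1h2bg and Hist1h4i described below. The linker histone gene H1fx stood at 103 and 120 FPKM in H3.3WT, at 39.8 in H3.3K27M replicate 1 and was listed at 0 in replicate 2. Its log2 change of -4.13 ± 1.31 rests on that listed 0, and its call (adjusted p = 0.0481) was lost under 7 of 10 other settings (adjusted p = 0.051 to 0.15).

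**Figure D3:**
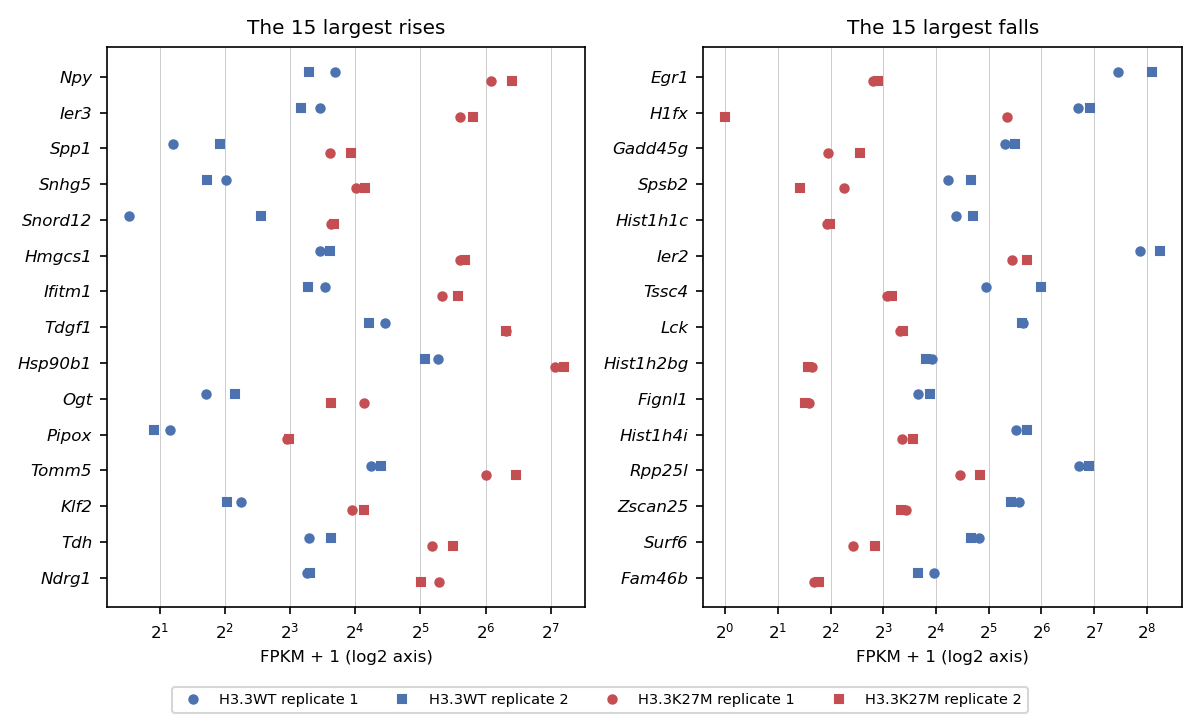
FPKM + 1 (log2 axis) in each H3.3WT (blue) and H3.3K27M (red) library for the 15 largest rises (left) and the 15 largest falls (right). The colours are separate in every row because separate groups were required for selection. Snord12 and H1fx have the widest spread within a group.

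Most enzymes of cholesterol biosynthesis were higher in H3.3K27M cells. Of the 22 genes of the pathway, all tested, 15 rose and none fell, with a median log2 change of 0.82 against -0.12 over all genes. The summed level of the pathway was 483.5 and 416.3 FPKM in H3.3WT and 870.2 and 853.0 in H3.3K27M. Acat2, the acetoacetyl-CoA thiolase that starts the pathway, stood at 20.7 and 19 against 71.3 and 71.1 FPKM (1.79 ± 0.16). Hmgcs1 followed with the rise given above. Both enzymes were clearly separated between the groups. In the mevalonate steps, Mvd, the decarboxylase, stood at 31.1 and 23.4 against 67.1 and 70.1 FPKM (1.31 ± 0.18). Mvk (28.7 and 17.9 against 33.9 and 35.1 FPKM), Pmvk (35.9 and 31.9 against 40.6 and 53.6 FPKM) and Idi1 (6.53 and 6.92 against 8.40 and 13.5 FPKM) had higher values but did not pass the test (adjusted p = 0.0863, 0.107 and 0.0897). Farnesyl diphosphate synthase, Fdps, rose from 43.2 and 29.5 to 73.5 and 87.9 FPKM (1.15 ± 0.21). Of the isoprenoid steps, the branch gene Ggps1, which leads to geranylgeranyl groups and away from sterols, was the only member with a negative change (-0.36, adjusted p = 0.202).

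In the sterol part of the pathway, squalene synthase Fdft1 stood at 23.6 and 20 against 53.9 and 41.8 FPKM (1.09 ± 0.19). Squalene epoxidase Sqle stood at 26.3 and 25.1 against 49.9 and 43.6 FPKM (0.84 ± 0.16). The lanosterol demethylase Cyp51 stood at 33.7 and 27.1 against 84.9 and 91.7 FPKM (1.51 ± 0.17). In each of these the lowest H3.3K27M library was above the highest H3.3WT library. The methylsterol oxidase Msmo1 stood at 4.89 and 9.34 against 20.5 and 24.9 FPKM (1.60 ± 0.27), and its partner Nsdhl at 12.1 and 11.4 against 35.1 and 28.5 FPKM (1.36 ± 0.18). Lss, Lbr, Ebp, Sc5d and Dhcr7, which close the ring and finish the sterol nucleus, rose by 0.55 to 0.89. The count of 15 became 14 and 11 without H3.3K27M replicate 1 and 2, and 11 and 7 without H3.3WT replicate 1 and 2. The calls that ended when a library was left out were those of Sqle, Fdps, Fdft1, Lss, Lbr, Ebp, Sc5d and Dhcr7 (adjusted p = 0.050 to 0.24).

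The regulators of sterol balance moved less uniformly. Srebf2, which encodes the transcription factor that drives the pathway, stood at 121 and 93.5 against 153 and 111 FPKM, with overlapping groups (0.29 ± 0.22, adjusted p = 0.347, but 0.012 with GC and length trends removed). Known targets of the factor rose, among them the sterol carrier gene Stard4 from 1.62 and 1.62 to 6.86 and 5.98 FPKM (1.5 ± 0.19) and the SREBP retention gene Insig1 from 25.3 and 31.2 to 57.8 and 48.2 FPKM (0.89 ± 0.18). Nr1h2, the oxysterol receptor LXR beta, which turns on sterol export, fell from 18.0 and 18.6 to 8.92 and 8.94 FPKM (-0.96 ± 0.17). Mbtps1, the protease that first cleaves SREBP, fell by 0.89. In all, 3 of 14 tested members rose and 2 fell, against 6 and 2 with GC and length trends removed and 5 and 2 with median-of-ratios scaling. The calls of Insig1, Nr1h2 and Mbtps1 were each lost without at least 1 H3.3WT library (adjusted p = 0.052 to 0.10).

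Fatty acid desaturation and elongation genes rose, whereas the committed synthetic enzymes did not separate. Of 19 tested members, 10 rose and 1 fell (median 0.59). Scd2, the stearoyl-CoA desaturase of brain, stood at 123 and 108 against 314 and 248 FPKM (1.27 ± 0.19). Elovl5, an elongase of polyunsaturated fatty acids, stood at 18.7 and 17.3 against 43.7 and 38.2 FPKM (1.14 ± 0.17). Scd1 stood at 22.5 and 17.8 against 46.1 and 36.0 FPKM (0.99 ± 0.19), and Srebf1, the fatty acid counterpart of Srebf2, at 21.9 and 16.4 against 40.5 and 32.9 FPKM (0.91 ± 0.20). These 4 genes were separated between the groups. Fasn, the fatty acid synthase, stood at 99.7 and 76.2 FPKM in H3.3WT and at 122 and 59.3 in H3.3K27M, so its H3.3K27M libraries lay on either side of the H3.3WT range. Acaca, which makes malonyl-CoA, overlapped as well (1.51 and 1.21 against 2.87 and 1.07 FPKM, adjusted p = 0.049 with GC and length trends removed). The single fall was that of Mcat, of mitochondrial fatty acid synthesis (-0.69), a call that median-of-ratios scaling ended. The count of 10 fell to 4 and 6 without H3.3K27M replicate 1 and 2 and to 5 and 2 without H3.3WT replicate 1 and 2, and the calls of Scd1 and Srebf1 were among those lost (adjusted p = 0.052 to 0.11). In fatty acid oxidation, 1 of 15 genes rose and 3 fell, shares near the 8.42% and 17.8% of all tested genes. The falls were those of Acads, from 37.4 and 35.7 to 18.8 and 16.8 FPKM (-1.0 ± 0.16), Eci1 (-0.75) and Acaa2 (-0.62), with Acadvl higher (0.90). The counts of rises and falls changed with the processing: 4 genes were higher and 3 lower with GC and length trends removed, and 3 higher and 2 lower with median-of-ratios scaling. The calls of Eci1, Acaa2 and Acadvl were lost without at least H3.3WT replicate 2 (adjusted p = 0.073 to 0.14).

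Genes that hypoxia-inducible factor (HIF) is known to activate were the other large group of rises. Of 30 tested members of the HIF pathway list, 18 rose and 2 fell, with a median of 0.84. The summed level was 1672 and 1442 FPKM in H3.3WT and 3146 and 3208 in H3.3K27M. Ndrg1 stood at 8.63 and 8.87 against 38.2 and 31.3 FPKM (1.87 ± 0.18). Bhlhe40, a circadian and hypoxia-induced repressor, stood at 7.99 and 9.62 against 37.9 and 30.4 FPKM (1.84 ± 0.19). Bnip3, which acts in mitophagy, stood at 27.9 and 44.1 against 108 and 136 FPKM (1.76 ± 0.23). The groups were far apart in all 3. Ankrd37 stood at 3.52 and 2.61 against 11.3 and 12.6 FPKM (1.68 ± 0.20), and P4ha1, a collagen prolyl hydroxylase, at 8.73 and 7.69 against 28.6 and 24.2 FPKM (1.57 ± 0.18). Pdk1, which blocks pyruvate entry into mitochondria, stood at 9.68 and 8.58 against 23.7 and 20.1 FPKM (1.17 ± 0.18). Bnip3l rose by 1.19, Ddit4, an inhibitor of mTORC1, by 1.17 and the HIF hydroxylase gene Egln3 by 1.13. All 9 of these genes remained called without any single library.

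The sensor side of the pathway differed from its targets. Hif1a itself stood at 6.24 and 8.39 against 11.6 and 9.63 FPKM and was not called (0.49 ± 0.21, adjusted p = 0.109; 0.044 with median-of-ratios scaling). Vegfa, a classical target, stood at 6.02 and 7.01 against 8.63 and 8.09 FPKM (0.32 ± 0.18, adjusted p = 0.223; 0.036 with GC and length trends removed). Epas1 was below 1 FPKM in these 4 libraries. Among the oxygen-dependent regulators, the hydroxylase gene Egln1 rose by 0.96, while Vhl, which targets HIF for destruction, fell from 23.7 and 23.3 to 15.3 and 13.3 FPKM (-0.68 ± 0.17) and Hif1an from 19.1 and 20.2 to 12.5 and 9.26 FPKM (-0.81 ± 0.19). The count of 18 became 16 and 18 without H3.3K27M replicate 1 and 2, and 13 and 10 without H3.3WT replicate 1 and 2. The calls of Vhl, Hif1an and Egln1 were among those lost (adjusted p = 0.052 to 0.11).

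Glycolysis, which shares genes with the HIF list, was higher as well. Of 26 tested members, 13 rose and 1 fell (median 0.67), and the summed level was 4547 and 3629 FPKM in H3.3WT against 7115 and 6574 in H3.3K27M. Slc2a1, the glucose transporter GLUT1, stood at 170 and 162 against 305 and 285 FPKM (0.82 ± 0.17). Pgk1, phosphoglycerate kinase, stood at 391 and 320 against 715 and 781 FPKM (1.08 ± 0.20). Ldha, which reduces pyruvate to lactate, stood at 458 and 307 against 795 and 848 FPKM (1.13 ± 0.24). The groups did not overlap in these genes, although the H3.3WT libraries differed by more than the H3.3K27M libraries in Ldha. Eno2, the neuronal enolase, stood at 8.37 and 7.17 against 28.0 and 23.5 FPKM (1.61 ± 0.18) and was called with each library left out in turn. Pkm, pyruvate kinase, stood at 1091 and 801 against 1572 and 1498 FPKM and did not pass (0.71 ± 0.24, adjusted p = 0.0580), and Hk2 stood at 43.9 and 41.3 against 67.5 and 47.3 FPKM (0.40 ± 0.20, adjusted p = 0.166, but 0.0097 with GC and length trends removed). Slc2a3, another glucose transporter, stood at 137 and 137 in H3.3WT and at 423 and 126 in H3.3K27M, so it was high in replicate 1 only. Pfkfb3 (5.27 and 4.71 against 17.9 and 4.91 FPKM) had the same form. Gapdh was listed at only 7.72 to 17.7 FPKM and Aldoa under 2 gene IDs, the lesser of which was the single fall, so these genes with near-identical copies are uncertain. The count of 13 became 5 and 9 without H3.3K27M replicate 1 and 2, and 4 and 2 without H3.3WT replicate 1 and 2. The calls of Slc2a1, Pgk1 and Ldha were lost without H3.3WT replicate 2, that of Slc2a1 also without replicate 1 (adjusted p = 0.079 to 0.13).

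**Figure D4:**
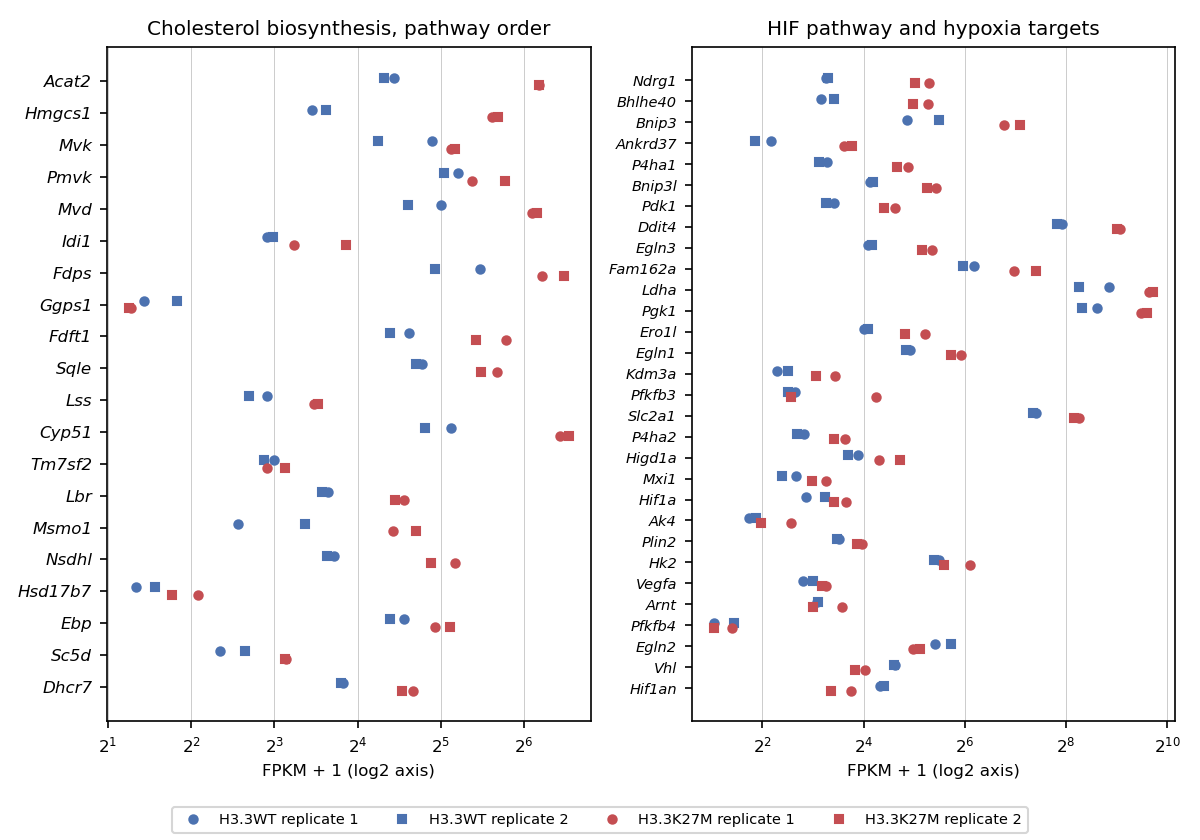
FPKM + 1 (log2 axis) in each H3.3WT (blue) and H3.3K27M (red) library for cholesterol genes in pathway order (left) and the 30 tested genes of the HIF list ordered by change (right). Red points lie to the right of blue in all but Ggps1 and Tm7sf2 on the left, and the wide gap between the red points of Pfkfb3 shows its spread within the group.

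Genes of pyruvate entry and the tricarboxylic acid cycle held rises of isocitrate and malate enzymes, some of them cytosolic, and a fall at 2-oxoglutarate. Of 30 tested genes of pyruvate entry and the cycle, 10 rose and 3 fell (median 0.25). Pdha1, the pyruvate dehydrogenase subunit that PDK1 phosphorylates, stood at 12.7 and 12.6 against 33.4 and 32.4 FPKM (1.31 ± 0.16). Idh1, the cytosolic isocitrate dehydrogenase, which makes 2-oxoglutarate and NADPH, stood at 22.6 and 16.0 against 62.8 and 42.0 FPKM (1.39 ± 0.24). Fh1, fumarate hydratase, stood at 23.5 and 22.2 against 45.4 and 47.3 FPKM (0.99 ± 0.16). The groups were separate in each of these, and their calls survived each single left-out library. Ogdh, which consumes 2-oxoglutarate, the cofactor of the KDM6 demethylases, fell from 48.0 and 40.5 to 27.9 and 18.7 FPKM (-0.92 ± 0.21), and the phosphatase gene Pdp1 (-0.56) and the cytosolic aconitase gene Aco1 (-0.55) were the other 2 falls. The mitochondrial Idh2 rose from 31.8 and 26.4 to 44.3 and 45.1 FPKM (0.61 ± 0.17), Idh3a by 0.88 and Suclg1 by 0.84. Mdh1, the cytosolic malate dehydrogenase gene, rose by 1.03. Of 15 tested genes of glutamine, glutamate and 2-oxoglutarate metabolism, 2 rose, Oat from 27.2 and 28.9 to 52.1 and 55.8 FPKM (0.92 ± 0.16) and Adhfe1 from 2.17 and 2.11 to 4.14 and 4.09 FPKM (0.71 ± 0.18), and 1 fell, the glutamine synthetase gene Glul (-0.56). Glud1, which turns glutamate into 2-oxoglutarate, overlapped between the groups. Calls of Ogdh, Pdp1, Aco1, Idh2, Idh3a, Suclg1, Mdh1, Oat, Adhfe1 and Glul were lost without at least 1 H3.3WT library (adjusted p = 0.050 to 0.23), and the 10 rises of the cycle list became 6 and 5 without H3.3WT replicate 1 and 2. Its 3 falls became 1 with median-of-ratios scaling and 0 without H3.3K27M replicate 2 or either H3.3WT library. In the glutamine list 2 rose and 2 fell with GC and length trends removed.

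The mRNAs that mitochondria encode were higher as a group, whereas of 22 tested mitochondrial tRNAs 1 was higher and 8 lower (median -0.34). All 13 mRNAs had positive changes and 9 were called higher (median 0.73), and their summed level was 3181 and 3649 FPKM against 5941 and 5998. mt-Co1, the main subunit of cytochrome oxidase, stood at 1058 and 1172 against 2074 and 1959 FPKM (0.86 ± 0.23). mt-Nd1, a subunit of complex I, stood at 240 and 261 against 465 and 473 FPKM (0.90 ± 0.18). Both showed close replicates and separate groups. The calls of the group were fragile nonetheless: none remained without H3.3WT replicate 1 (for mt-Co1 adjusted p = 0.22), 2 without H3.3WT replicate 2 and 5 without H3.3K27M replicate 2. Nuclear-encoded subunits of the respiratory chain moved less. Beside 8.42% higher and 17.8% lower of all tested genes, 6 of 46 were higher and 1 lower (Ndufs8, -0.57), with a median of 0.11. Removing GC and length trends gave 10 higher and 2 lower, and without H3.3WT replicate 1 or 2 a single rise was left each time. Among them Uqcrc2, a core subunit of complex III, rose from 32.8 and 32.7 to 62.7 and 59.4 FPKM (0.88 ± 0.16), a call that ended without H3.3WT replicate 2 (adjusted p = 0.056).

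Targets of the amino acid and stress response factor ATF4 were lower in H3.3K27M cells. Of 23 tested genes of the ATF4 response and amino acid transport, 13 fell and 1, the cystine transporter gene Slc7a11 (0.64), rose (median -0.70), and the summed level was 2374 and 2460 FPKM against 1511 and 1591. Trib3, a pseudokinase induced by ATF4, stood at 240 and 262 against 64.2 and 71.9 FPKM (-1.87 ± 0.17). Ppp1r15a, the phosphatase subunit GADD34, stood at 35.2 and 38.6 against 14.3 and 17.2 FPKM (-1.18 ± 0.17). Sesn2, a leucine sensor, stood at 88.8 and 86.6 against 45.9 and 39.7 FPKM (-1.02 ± 0.16). The groups were well separated. Atf3 (-1.02), the glutathione-degrading enzyme gene Chac1 (-0.94) and the neutral amino acid transporter gene Slc1a4 (-1.05) fell as well, and all 6 calls held with each single library left out. Atf4 itself stood at 490 and 544 against 326 and 396 FPKM and did not pass (-0.52 ± 0.20, adjusted p = 0.0843), and Asns, a classical target, had values of 110 and 93.1 against 124 and 141 FPKM (0.38, adjusted p = 0.141). Ddit3, which encodes CHOP, stood at 37.9 and 54.5 against 16.6 and 25.1 FPKM (-1.12 ± 0.24), with the call lost without H3.3K27M replicate 1 or H3.3WT replicate 2 (adjusted p = 0.052 to 0.10). The 13 falls became 6 without H3.3WT replicate 2, and the call of Slc7a11 was lost without any 1 of the 4 libraries.

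Chaperones of the endoplasmic reticulum went the opposite way. Of 24 tested genes of that list, 8 rose and none fell (median 0.46). Hsp90b1, the chaperone GRP94, stood at 37.8 and 32.6 against 133 and 146 FPKM (1.95 ± 0.17), and Hspa5, the chaperone BiP, at 88.5 and 109 against 229 and 239 FPKM (1.25 ± 0.18). Sdf2l1 stood at 29.3 and 31.5 against 56.3 and 66.8 FPKM (0.99 ± 0.17). These 3 genes were separate and kept their calls without any single library. Xbp1 (19 and 18.1 against 24.5 and 28.1 FPKM, adjusted p = 0.0648) and Atf6 (5.79 and 5.38 against 4.76 and 3.19 FPKM, adjusted p = 0.173), factors of the unfolded protein response, did not pass. The count of 8 became 15 with GC and length trends removed, and 3 and 4 without H3.3WT replicate 1 and 2. Of 11 heat shock genes 3 rose and 3 fell: Hspd1, the mitochondrial chaperonin, from 91.0 and 98.6 to 231 and 256 FPKM (1.35 ± 0.17), Hsp90aa1 by 1.03 and Hspa8 by 0.98, against Dnajb1, from 42.8 and 47.0 to 24 and 23.8 FPKM (-0.88 ± 0.16), Bag3 (-0.83) and Hsph1 (-0.76). The heat shock counts were 5 and 3 with GC and length trends removed. Calls other than that of Hspd1 were lost without at least 1 library (adjusted p = 0.059 to 0.15).

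Immediate early genes, which growth-factor and ERK signalling induces within minutes, contained the largest fall of the comparison and, beside several falls, a few rises. Of 26 tested members 8 fell and 3 rose (median -0.36). Beside Egr1 and Ier2, Junb stood at 19.8 and 37.3 against 10.1 and 9.95 FPKM (-1.36 ± 0.27). Fos stood at 3.24 and 7.78 against 1.75 and 1.56 FPKM (-1.20 ± 0.31), and Jund at 90.5 and 111 against 46.2 and 51.6 FPKM (-1.02 ± 0.18). In Junb, Fos and Egr1 the H3.3WT libraries differed from each other, replicate 2 being the higher each time. Jun (8.77 and 12.5 against 11.6 and 10.7 FPKM), Myc (6.67 and 4.24 against 5.62 and 5.13 FPKM) and Spry4 (7.58 and 5.77 against 8.03 and 6.20 FPKM), other outputs of the same signalling, overlapped between the groups. Ier3, Klf2 and the ERK feedback inhibitor Spry1 (2.95 and 3.34 against 5.52 and 5.23 FPKM, 0.62 ± 0.19) were the 3 that rose. The 8 falls became 5 with GC and length trends removed or among genes averaging at least 5 FPKM, 3 without H3.3K27M replicate 2 and 2 without H3.3WT replicate 2. Egr1 and Ier2 were called in all of these, and the calls of Junb, Fos, Jund and Spry1 were each lost in at least 1 fit without a library (adjusted p = 0.053 to 0.20).

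Genes of mitosis were higher, while those of the G1/S transition held more rises than falls around a median change of 0.00. Of 34 tested G2/M genes, 16 rose and none fell (median 0.55). Ccnb2, a mitotic cyclin, stood at 38.6 and 25.1 against 93.3 and 111 FPKM (1.68 ± 0.22). Ccna2, cyclin A2, stood at 12.6 and 11.8 against 30.4 and 29.7 FPKM (1.23 ± 0.16). Ccnb1 stood at 17.6 and 15.6 against 41.7 and 35.6 FPKM (1.17 ± 0.17), and Cdk1, their kinase, at 17.0 and 18.1 against 33.1 and 40.5 FPKM (1.02 ± 0.17). These 4 genes were separate between the groups and were called without any single library. Mki67, the proliferation marker, overlapped (6.22 and 6.01 against 8.53 and 4.06 FPKM), as did Cdc20 (239 and 170 against 228 and 221 FPKM). The count of 16 became 9 without H3.3K27M replicate 2, 8 without H3.3WT replicate 1 and 4 without H3.3WT replicate 2. Of 34 G1/S genes 7 rose and 2 fell (median 0.00), beside 8.42% higher and 17.8% lower of all tested genes. The origin recognition gene Orc1 rose from 5.76 and 5.91 to 13.3 and 13.1 FPKM (1.05 ± 0.17) while the cyclin-dependent kinase gene Cdk6 fell by 0.71 and the uracil glycosylase gene Ung fell from 40.9 and 42.5 to 18.9 and 19.2 FPKM (-1.09 ± 0.16). Pcna, the replication clamp, rose from 84.8 and 98.1 to 153 and 167 FPKM (0.80 ± 0.17), and neither Pcna nor Cdk6 was called without either H3.3WT library (adjusted p = 0.060 to 0.17). The 7 G1/S rises became 12 with GC and length trends removed, 4 without H3.3K27M replicate 2, and 1 and 2 without H3.3WT replicate 1 and 2. Of 5 tested cyclin-dependent kinase inhibitors, Cdkn2a alone was called (6.60 and 6.65 against 12.2 and 17.6 FPKM, 1.04 ± 0.21), a call lost without H3.3K27M replicate 2 or either H3.3WT library (adjusted p = 0.050 to 0.059).

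Histone genes that are expressed with DNA replication were lower where they changed. All 56 listed genes were in the table, of which 42 were tested, 16 fell and none rose (median -0.57), and the summed level was 393.1 and 375.9 FPKM against 163.0 and 203.0. The linker histone gene Hist1h1c stood at 19.8 and 25.0 against 2.82 and 2.96 FPKM (-2.58 ± 0.19). Hist1h2bg, an H2B gene, stood at 14.2 and 13.1 against 2.15 and 1.96 FPKM (-2.26 ± 0.18). Hist1h4i, an H4 gene, stood at 44.8 and 51.8 against 9.20 and 10.8 FPKM (-2.17 ± 0.17). These falls were among the 15 largest of the comparison. Others of the same cluster, such as Hist1h2ae (13.9 and 10.3 against 9.77 and 14.6 FPKM) and Hist1h4b (7.48 and 5.56 against 5.23 and 5.81 FPKM), overlapped. Most replication-dependent histone mRNAs lack a poly(A) tail, so a poly(A) library sees only part of them, and near-identical copies can share reads. They also have few exons, a class that was lower as a whole (median -0.44); its part in this result was not tested. The count of falls was 19, with 3 rises, when GC and length trends were removed, 8 among genes averaging at least 5 FPKM, and 9 and 10 without H3.3WT replicate 1 and 2.

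Several chaperones that place H3.3 on chromatin were lower. Of 9 tested members of that list, which includes both H3.3 genes, 5 fell and none rose (median -0.80). The change was positive in 3 members, up to 0.54, and 1 was called higher with median-of-ratios scaling. H3f3a is 1 of the 5 falls, and its values do not separate the deleted gene from the introduced copy. Beside H3f3a (-1.09), Daxx, which deposits H3.3 at telomeres and repeats, stood at 23.1 and 23.6 against 10.4 and 13.6 FPKM (-0.92 ± 0.18). Hira, which deposits it at genes, stood at 25.2 and 27.8 against 16.3 and 13.2 FPKM (-0.81 ± 0.18), and its partners Ubn1 and Cabin1 had changes of -0.80 each. H3f3b did not pass (-0.54 ± 0.18, adjusted p = 0.0558), but was called among genes averaging at least 5 FPKM (0.047) and with GC and length trends removed (0.0096). None of the 5 calls held without H3.3WT replicate 2 (adjusted p = 0.067 to 0.17), and 1 and 2 remained without H3.3WT replicate 1 and H3.3K27M replicate 2.

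Transcripts of PRC2, the enzyme complex that K27M acts on, changed little. Of 12 tested subunits Ezh2 alone was called (2 rose with GC and length trends removed), at 5.22 and 5.26 against 8.37 and 8.09 FPKM (0.56 ± 0.18, adjusted p = 0.0482), and that call was lost without any 1 of the 4 libraries (adjusted p = 0.095 to 0.19). Eed stood at 4.74 and 6.25 against 6.75 and 8.10 FPKM (adjusted p = 0.196), and Suz12 at 5.18 and 13.4 against 16.5 and 12.9 FPKM, with overlapping groups (adjusted p = 0.153; 0.027 without H3.3WT replicate 2). The demethylase genes Kdm6a (4.51 and 4.66 against 4.56 and 3.15 FPKM) and Kdm6b (32.4 and 28.7 against 24.1 and 13.3 FPKM, adjusted p = 0.0649, but 0.014 without H3.3K27M replicate 1) were not called either. PRC1 differed: 6 of 18 tested subunits fell and none rose (median -0.23). Cbx8, a reader subunit, stood at 5.83 and 6.61 against 1.92 and 1.84 FPKM (-1.32 ± 0.19), and Cbx2 at 57.8 and 56.6 against 27 and 22.2 FPKM (-1.19 ± 0.17). Bcor, of the noncanonical PRC1.1, stood at 39.3 and 33.2 against 17.6 and 9.73 FPKM (-1.39 ± 0.26). These 3 genes were separate between the groups and kept their calls under each single left-out library, with GC and length trends removed and with median-of-ratios scaling. The falls of Cbx6 (-0.71) and Scmh1 (-0.70) were lost with median-of-ratios scaling and without either H3.3WT library (adjusted p = 0.052 to 0.17), and that of Cbx6 also with GC and length trends removed (adjusted p = 0.38). The E3 ligase genes Ring1 (3.0 and 2.91 against 2.22 and 3.23 FPKM) and Rnf2 (9.40 and 12.5 against 13.8 and 14.4 FPKM) and the reader gene Cbx7 (19.7 and 15.1 against 16.8 and 14.5 FPKM) did not pass.

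Developmental regulators that PRC2 is known to silence were mostly not expressed, and among those that were tested more were called lower than higher, an excess that was near even with GC and length trends removed. Of 96 listed genes outside the Hox clusters 39 were in the table and 24 were tested, of which 10 fell and 3 rose (median -0.47). The homeobox gene En2 stood at 13.7 and 13.8 against 5.22 and 5.24 FPKM (-1.24 ± 0.17). Dlx5 stood at 2.63 and 2.60 against 0.514 and 0.838 FPKM (-1.12 ± 0.18), and Sox9, a regulator of glial and neural crest fate, at 2.75 and 2.67 against 1.01 and 0.608 FPKM (-1.05 ± 0.19). The groups were clearly separate in these 3. The rises were Cdkn2a, the tumour suppressor locus, with the values above, T, which encodes brachyury (2.86 and 1.96 against 6.71 and 4.94 FPKM, 1.00 ± 0.22), and Tbx1 (31.5 and 24.1 against 46.3 and 46.6 FPKM, 0.73 ± 0.18). Of 39 Hox genes 4 were tested, and Hoxb13 was called, at 38.2 and 35.5 against 16.1 and 13.7 FPKM (-1.25 ± 0.17). Once GC and length trends were removed, 5 fell and 4 rose. The 10 falls became 3 among genes averaging at least 5 FPKM, 6 without H3.3K27M replicate 2 and 6 and 5 without H3.3WT replicate 1 and 2. The calls of Cdkn2a, T and Tbx1 were each lost without at least H3.3WT replicate 2 (adjusted p = 0.059 to 0.17), and those of En2, Dlx5, Sox9 and Hoxb13 were not lost under any setting in which they were tested.

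Components of Notch, Wnt and TGF-beta signalling fell where they changed. Of 22 tested Notch genes 9 fell and none rose (median -0.42). The targets Hey1 (12.3 and 14.9 against 4.34 and 4.05 FPKM, -1.49 ± 0.19) and Nrarp (5.56 and 5.46 against 1.73 and 1.34 FPKM, -1.36 ± 0.19) fell, as did the coactivator gene Maml1 (30.4 and 32.7 against 15.8 and 9.04 FPKM, -1.32 ± 0.24). Hes1, the best known target, overlapped (11.1 and 15.3 against 10.5 and 12.1 FPKM). Of 27 Wnt genes 10 fell and none rose (median -0.30). The Frizzled receptor genes Fzd10 (25.9 and 18.5 against 7.91 and 5.29 FPKM, -1.61 ± 0.24), Fzd2 (37.8 and 38.3 against 14.5 and 13.6 FPKM, -1.38 ± 0.16) and Fzd8 (-1.11) and the feedback inhibitor Nkd1 (7.22 and 7.92 against 2.82 and 2.72 FPKM, -1.18 ± 0.18) were among them, while Ctnnb1 overlapped (144 and 184 against 181 and 135 FPKM). Of 25 TGF-beta, BMP and YAP genes 7 fell and none rose (median -0.26), beside 17.8% lower and 8.42% higher of all tested genes. Among the falls were the YAP target Cyr61 (53 and 62.7 against 22.6 and 22.6 FPKM, -1.31 ± 0.17) and Bambi (17.9 and 20.2 against 7.86 and 9.05 FPKM, -1.08 ± 0.18). With median-of-ratios scaling the falls were 7 of the Notch, 8 of the Wnt and 4 of the TGF-beta list, with 0, 1 and 1 rises. Among genes averaging at least 5 FPKM they were 3, 6 and 7. With GC and length trends removed, the falls were 5 of the Notch, 6 of the Wnt and 6 of the TGF-beta list, with 1, 3 and 3 rises. Without H3.3WT replicate 2 they were 5, 5 and 3, without H3.3WT replicate 1 4, 6 and 4, and without H3.3K27M replicate 2 6, 5 and 3, and the genes with values here kept their calls in these fits.

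Among markers of cell identity, Vim and Nes parted. Vim, which encodes vimentin, stood at 10.3 and 12.1 against 34.6 and 41.8 FPKM (1.68 ± 0.18), and Nes, which encodes nestin, at 35.2 and 38.8 against 16.8 and 14.3 FPKM (-1.20 ± 0.17). Both intermediate filament genes are marks of neural progenitors. In a bulk sample, fewer cells of a type and less RNA per cell cannot be told apart. Of 11 tested neural stem cell markers 2 rose and 5 fell (median -0.28), and Sox3 stood at 92.9 and 88.9 against 48.4 and 53.7 FPKM (-0.82 ± 0.16). Prom1 (0.99) was the other rise, and Sox9, Msi1 (-0.69) and Slc1a3 (-0.63) the other falls. Removing GC and length trends left 2 rises and 3 falls, and without H3.3WT replicate 1 and 2 the falls were 2 each time. Of 8 neuron markers 4 fell, led by Nefm, a neurofilament gene (5.24 and 7.73 against 1.91 and 1.67 FPKM, -1.41 ± 0.22), while Tubb3 overlapped (68.9 and 67.4 against 68.3 and 71.6 FPKM). The other 3 falls, of Rbfox3, Nefl and Elavl3 (-0.74 to -0.56), were each lost without H3.3WT replicate 2, 2 falls were left with GC and length trends removed or with median-of-ratios scaling, and the list summed to 100.3 and 107.0 against 97.8 and 102.6 FPKM. Of 9 epithelial markers 4 rose (median 0.39), with Krt8, a keratin gene, at 0.870 and 0.635 against 4.48 and 4.84 FPKM (1.69 ± 0.18) and Epcam at 75.9 and 57.1 against 123 and 134 FPKM (0.95 ± 0.19). This list summed to 176.4 and 149.7 FPKM in H3.3WT and 254.1 and 246.4 in H3.3K27M, and its other 2 rises were those of Grhl2 (0.84) and Krt18 (0.60). The 4 rises became 2 without H3.3K27M replicate 1 or H3.3WT replicate 1, and 1 without H3.3WT replicate 2 or among genes averaging at least 5 FPKM. All 3 tested astrocyte markers rose, Gja1, a gap junction gene, from 19.4 and 12.8 to 48.0 and 37.8 FPKM (1.38 ± 0.22), Aldh1l1 by 1.04 and Aldoc by 0.88, while the defining marker genes Gfap, Aqp4, S100b, Slc1a2 and Gjb6 were not in the table. Of 13 tested pluripotency genes 2 rose and 2 fell, beside 8.42% higher and 17.8% lower of all tested genes. The rises were those of Tdgf1 as above and Dppa4 (0.85). The falls were those of L1td1, from 111 and 129 to 66.2 and 60 FPKM (-0.91 ± 0.17), and Nodal, from 97.5 and 67.2 to 50.9 and 47.9 FPKM (-0.70 ± 0.20). These counts became 5 and 1 with GC and length trends removed and 4 and 1 with median-of-ratios scaling. The calls of Sox3, Prom1, Msi1, Slc1a3, Epcam, Grhl2, Krt18, Aldh1l1, Aldoc, Dppa4, L1td1 and Nodal were lost under at least 1 setting that left out a library (adjusted p = 0.061 to 0.27). Those of Vim, Nes, Krt8, Gja1, Nefm and Tdgf1 were not.

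**Figure D5:**
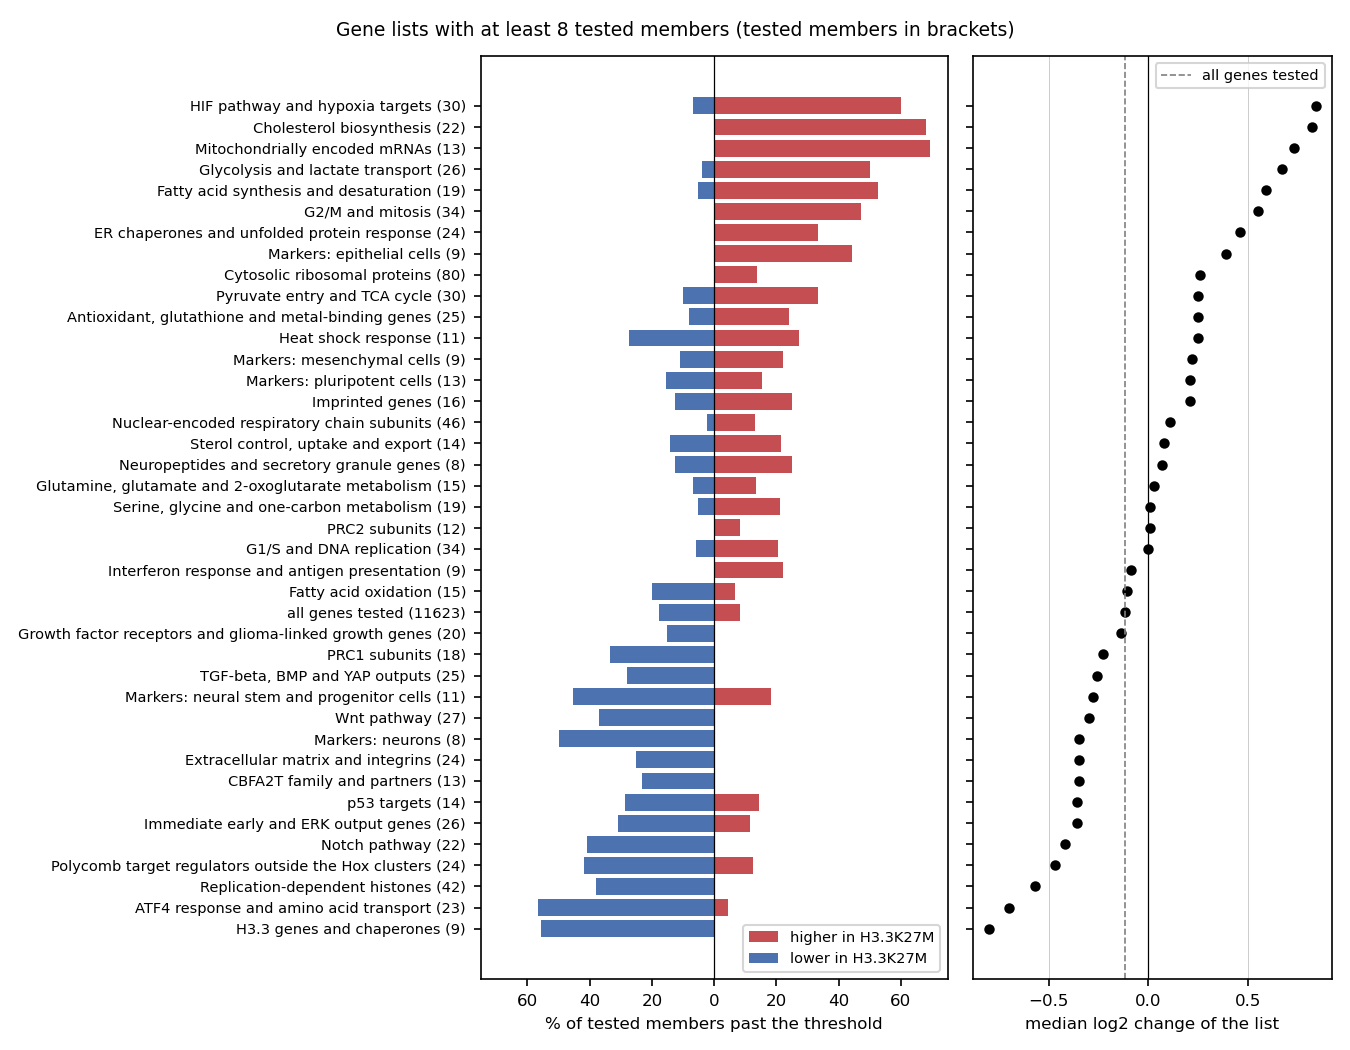
For each gene list with at least 8 tested members, the percentage of tested members called higher (red, right) or lower (blue, left) in H3.3K27M, and the median log2 change of the list (points; the dashed line is the median of all tested genes, -0.12). The HIF, cholesterol and mitochondrially encoded lists lie at the top with medians of 0.84, 0.82 and 0.73. The ATF4 list and the list of H3.3 genes and chaperones lie at the bottom with -0.70 and -0.80.

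Smaller groups held single strong changes. Of 16 tested imprinted genes 4 rose and 2 fell, with Peg10, a retrotransposon-derived gene, at 40.7 and 34.7 against 127 and 85.2 FPKM (1.44 ± 0.22). Sgce, its neighbour, rose by 1.00, Impact by 0.91 and Mest by 0.58, and Grb10 fell by 0.76 and Phlda2 by 0.71, 5 calls that were each lost without at least 1 library (adjusted p = 0.055 to 0.32). The imprinted counts were 8 and 2 with GC and length trends removed. Among 25 antioxidant and metal-binding genes 6 rose and 2 fell (10 and 2 with GC and length trends removed or with median-of-ratios scaling): Gsta4, a glutathione transferase of lipid aldehydes, stood at 64.6 and 62.3 against 125 and 158 FPKM (1.13 ± 0.18) and catalase, Cat, at 16.7 and 16.2 against 37.1 and 31.7 FPKM (1.02 ± 0.17), against Gpx1 at 116 and 123 against 55.8 and 61.2 FPKM (-1.02 ± 0.16). These genes kept their calls with each library left out. Of 19 one-carbon genes 4 rose and 1 fell, the last being Mat2a, which makes the methyl donor S-adenosylmethionine, at 96.0 and 97.3 against 43.4 and 42.0 FPKM (-1.16 ± 0.16). Aldh1l1 (1.04), Mthfd1 (0.93) and Shmt1 (0.90), of folate metabolism, rose, and Ahcy, which clears the product of methyl transfer, stood at 81.5 and 57.5 against 163 and 155 FPKM (1.21 ± 0.20), with the calls of all 4 rises lost without 1 H3.3WT library (adjusted p = 0.051 to 0.073). Of 8 neuropeptide and granule genes, Trh, thyrotropin-releasing hormone, fell from 33.2 and 37.2 to 10.4 and 10.7 FPKM (-1.65 ± 0.17), opposite to Npy. Cytosolic ribosomal protein genes rose in 11 of 80 cases and fell in none (median 0.26), but this count ran from 2 without H3.3WT replicate 2 to 33 without H3.3K27M replicate 1 and was 20, with 1 fall, with GC and length trends removed, and pseudogene copies make single members uncertain.

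The direct comparison of H3.3K27M with Cbfa2t2_KO asked where cells with the mutant histone and cells labelled as lacking Cbfa2t2 under wild-type H3.3 had different levels. It used all 6 libraries in 1 fit over the genes of both tables, and called 905 of 11601 genes, 7.80%: 362 higher (3.12%) and 543 lower (4.68%) in H3.3K27M. Grb10, an imprinted adaptor that restrains insulin signalling, stood at 13.8 and 9.71 FPKM in H3.3K27M and at 71.6 and 59.5 in Cbfa2t2_KO (-2.39, adjusted p = 0.00122), against 20.4 and 20.4 in H3.3WT. Cdkn2a stood at 12.2 and 17.6 against 53.3 and 60.3 FPKM (-1.88, adjusted p = 0.00315). Ctgf, a YAP target, stood at 5.55 and 5.61 against 0.131 and 0.133 FPKM (2.54, adjusted p = 0.00122). Against H3.3WT, Ctgf was called lower in H3.3K27M, a call lost with median-of-ratios scaling (-0.55, adjusted p = 0.075). The libraries of each of these 3 genes lay close together within a group and far apart between the groups. Tdgf1 stood at 78.7 and 78.4 against 24.3 and 20.8 FPKM (1.76, adjusted p = 0.00215), Ifitm1 at 39.1 and 46.9 against 13.9 and 15.8 FPKM (1.47, adjusted p = 0.00599), and Trh at 10.4 and 10.7 against 3.03 and 3.62 FPKM (1.42, adjusted p = 0.00599). The differences of these 6 genes from Cbfa2t2_KO were called under every alternative run for this comparison.

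Npy, at 67.0 and 83.4 FPKM in H3.3K27M, stood at 28.6 and 37.0 in Cbfa2t2_KO (1.18, adjusted p = 0.0165). Hmgcs1 stood at 47.9 and 50.3 against 27 and 16.1 FPKM (1.20, adjusted p = 0.0215), and Cyp51 at 84.9 and 91.7 against 48.3 and 39.0 FPKM (1.01, adjusted p = 0.0165). Sox2 stood at 28.1 and 32.2 against 12.3 and 9.55 FPKM (1.39, adjusted p = 0.00724). In each of these H3.3K27M was the higher group and the ranges did not overlap. Ogdh, in contrast, stood at 27.9 and 18.7 against 47.5 and 49.4 FPKM (-1.05, adjusted p = 0.0221), Idh2 at 44.3 and 45.1 against 76.6 and 86.2 FPKM (-0.85, adjusted p = 0.0200), Kdm6b at 24.1 and 13.3 against 44.6 and 42.1 FPKM (-1.23, adjusted p = 0.0248) and Acadvl at 5.50 and 5.50 against 16.1 and 17.3 FPKM (-1.45, adjusted p = 0.00965). The main genes of the HIF list did not differ past the threshold, among them Ndrg1 (22.9 and 26.7 FPKM in Cbfa2t2_KO, adjusted p = 0.106, but 0.033 with GC and length trends removed), Bhlhe40 (34.9 and 37.6 FPKM, 0.767) and Ddit4 (489 and 569 FPKM, 0.987), nor did Egr1 (7.55 and 7.59 FPKM, 0.456), which does not show that their levels were equal. Calls of this comparison rested heavily on 1 library: without Cbfa2t2_KO replicate 2 they fell to 29, of which 22 were also called with all libraries, and the 8 genes of this paragraph with a call lost it there (adjusted p = 0.064 to 0.18). Without Cbfa2t2_KO replicate 1 the calls were 162, and without H3.3K27M replicate 2 they were 161.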

How the data were processed

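Poly(A) RNA of 2 H3.3WT, 2 H3.3K27M and 2 Cbfa2t2_KO libraries was sequenced. The deposited values are FPKM per gene. Per the submitters' processing notes, the tools included Trim Galore, HISAT2, StringTie and DESeq with build GRCm38; their versions, roles and the strand setting are not given in the sources used here. The H3.3K27M columns name their group only by the letter M and were assigned on it. The FPKM values the authors deposited showed no whole-read steps, so no counts were recovered and depth is unknown.

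Genes averaging at least 1 FPKM were tested with limma 3.58.1 (R 4.3.3) on log2(FPKM + 1) with a trended prior and Benjamini-Hochberg adjustment at 0.05. On simulated data, the fit recovered 90% of 200 genes changed 2-fold, with 5 false calls among 185. The simulation drew independent noise for each gene, changed only genes of at least 2 FPKM and held no GC or length trends. The real libraries differ along such trends, so it does not give the power or the share of false calls in these data. An exact permutation test of 2 against 2 cannot go below 0.333. Genes were named by rule: the H3.3 genes and Cbfa2t2, the 15 largest rises and 15 largest falls that were called, did not overlap and reached 2 FPKM, and in each list its key genes and up to 4 called members with the largest change; others are given where a pathway is followed in order or a small count is spelled out. The genes and lists were chosen with earlier results of these data known. Coordinates, GC content and lengths are from GENCODE vM21. A few members of the lists are counted but not reported here by name.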

Additional observations from a re-analysis of the deposited data

How the results depend on the processing

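No paired analysis was made. The column names number the libraries within each group, but the labels do not say that equal numbers belong together. Against H3.3WT, the 979 higher and 2070 lower calls stayed within 1.5 times under a pseudocount of 0.1, no filter, a filter at 5 FPKM, median-of-ratios scaling and an untrended prior. With GC and length trends removed the higher calls were 1847. Leaving out 1 library gave 295 to 811 higher and 712 to 1979 lower calls. Against Cbfa2t2_KO, 717 were higher with those trends removed, and leaving out 1 library gave 19 to 266 higher and 10 to 520 lower calls. Reversals of sign were looked for only among the named genes and, against H3.3WT, the called members of the lists. Among these Uqcrb alone reversed, at -0.44 against Cbfa2t2_KO with GC and length trends removed. Depth is unknown, so counting error could not be given.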

Other observations

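Of 13 tested genes of the CBFA2T family and its partners none rose and 3 fell, a share near the 17.8% of all tested genes that fell: the corepressor gene Sin3a (35.5 and 34.7 FPKM in H3.3WT against 24.9 and 19.3 in H3.3K27M, -0.65), the E-protein gene Tcf3 (55.4 and 49.5 against 36.1 and 31.0 FPKM, -0.63) and the LIM-domain binding gene Ldb1 (40.4 and 39.8 against 26.3 and 26.8 FPKM, -0.58). None of these 3 was called with median-of-ratios scaling, nor without H3.3K27M replicate 2 or either H3.3WT library. The deacetylase genes Hdac1, Hdac2 and Hdac3 overlapped between the groups.

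Among 14 tested targets of p53, in cells labelled as lacking it, 4 fell and 2 rose. Over all tested genes 17.8% fell and 8.42% rose. Aen, an apoptosis nuclease gene, stood at 21.7 and 17.9 against 7.0 and 6.52 FPKM (-1.42 ± 0.18), and Phlda3, an inhibitor of AKT, at 8.01 and 8.34 against 3.4 and 3.23 FPKM (-1.09 ± 0.18). Cdkn1a, the best known target, overlapped (2.51 and 3.39 against 1.91 and 2.59 FPKM). Pmaip1 (0.87) and Sesn1 (0.81) rose and Btg2 (-0.75) fell, and none of these 3 was called without H3.3WT replicate 2, whereas Aen, Phlda3 and Sesn2 were.

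Of 24 tested matrix and integrin genes 6 fell and none rose (median -0.35), beside 17.8% lower and 8.42% higher of all tested genes. The falls were led by the fibrillin gene Fbn1 (5.15 and 6.17 against 2.92 and 1.3 FPKM, -1.14 ± 0.27). The count was 10 without H3.3K27M replicate 1, none without H3.3WT replicate 1, and 1 without H3.3WT or H3.3K27M replicate 2, and 4 genes rose with GC and length trends removed. Of 20 growth-factor receptor and glioma-linked genes Pdgfrb (-0.77), Fgfr2 (-0.73) and Acvr1 (-0.58) fell and none rose, a share no larger than that of all tested genes. These calls were lost without either H3.3WT library. With GC and length trends removed 4 rose and 2 fell, and with median-of-ratios scaling 2 rose and 2 fell. Of 7 tested DNA methylation genes Dnmt3l alone was called (1.31 and 1.38 against 2.46 and 2.59 FPKM, 0.59), a call lost without any 1 of the 4 libraries.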
